A study of Mus musculus with 6 samples.

Results

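The genes described here encode nuclear subunits of the mitochondrial respiratory chain and of ATP synthase, measured in mouse CD8+ T cells with and without the E3 ubiquitin ligase Nrdp1. They were taken by symbol: every gene with a probe set of a single symbol whose symbol begins with Ndufa, Ndufb, Ndufc, Ndufs, Ndufv, Uqcr, Cox4i, Cox5, Cox6, Cox7, Cox8 or Atp5, leaving out assembly factors of the Ndufaf series and pseudogenes. The rule uses symbols and not differences between groups, but the set was proposed with earlier results of these data known. The rule gave 78 genes of 18193 on the array: 36 of complex I, 8 of complex III, 17 of complex IV and 17 of ATP synthase. For each gene the brightest probe set was used, out of 160 in all, and 73 genes were bright enough to be tested. The 5 genes left out of the tests were Ndufa4l2, Ndufb4, Cox7a1, Cox7b2 and Cox8b.

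Nrdp1-/- and wild-type (Nrdp1+/+) C57/BL6 mice gave naive CD8+ T cells from the spleen, which were left untreated or stimulated for 4 h or 8 h. Stimulation used antibodies to CD3 (bound to the plate, 5 µg/ml) and to CD28 (in solution, 1 µg/ml), which engage the T-cell receptor complex and its main co-receptor. Total RNA was hybridised to Affymetrix mouse arrays, with 1 array for each genotype and condition and 6 in all. The labels do not give how the Nrdp1 allele was made, the age of the mice, or how many mice gave each RNA, so the p-values below speak of the scatter among these arrays, which may be technical.

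Complex I passes electrons from NADH to ubiquinone, complex III passes them on to cytochrome c, and complex IV (cytochrome c oxidase) hands them to oxygen. The protons pumped on the way drive ATP synthase, whose ring of c subunits in the membrane turns the catalytic F1 head. Each complex joins subunits encoded in the nucleus to a few encoded by mitochondrial DNA, except complex II. A resting T cell relies on this system for most of its ATP, and a T cell activated through its receptor grows, makes new mitochondria and raises glycolysis.

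The values are MAS5 signals, background-corrected brightness per probe set scaled so that the trimmed mean of every array is the same. Signals of different probe sets are not levels of one scale, so genes are compared below only with themselves across arrays, except as a description of how bright they were. The array medians lay between 61.5 and 68.6. T-cell markers were bright on every array (7 of 8 listed were on the array; summed signal 78991, 73726 and 67063 on the untreated, 4 h and 8 h Nrdp1-/- arrays and 81921, 73211 and 70477 on the wild-type arrays). Cd4 was at 6.06 to 15.7 throughout. The extraction text in the labels names colon, and 6 of 10 colon epithelium markers lay below the array median on all 6 arrays, with the summed signal of the list between 516 and 780. Epcam was above the array medians throughout, at 173 to 529, with a genotype log2 difference of -1.06 (adjusted p = 0.00141, limma). Car1 was at 135 to 286 in Nrdp1-/- cells and 33.9 to 36.4 in wild-type cells (log2 difference 2.27, adjusted p = 0.00304, limma). Rnf41, the gene of Nrdp1, has 4 probe sets. One read 54.5, 70.9 and 83.7 in untreated, 4 h and 8 h Nrdp1-/- cells against 181, 166 and 161 in wild-type cells. The brightest read 528, 437 and 477 in Nrdp1-/- cells against 728, 505 and 639 in wild-type cells. Another read 201, 180 and 162 in Nrdp1-/- cells against 224, 130 and 203 in wild-type cells. The dimmest read 51.7, 43.7 and 26.7 against 56.0, 29.1 and 20.3, so on both of these the genotypes overlapped. The deleted stretch of the gene is not given in the sources used here, so these probe sets do not check the labels.

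Promoter sequence is shown for 6 genes, because most nuclear genes of the chain are described as targets of the factors NRF1, the ETS factor GABP, YY1 and Sp1. They are the called genes with the largest change in complex I, complex IV and ATP synthase (Ndufa12, Cox5a and Atp5g1), the only gene that fell (Cox7a2l), and Uqcr11 and Ndufc1, added after the search because they hold an NRF1 and a YY1 match. Each window runs from 250 bases before to 50 after the annotated start, 5' to 3' along the gene, from RefSeq on GRCm38.p6. Capitals mark matches on either strand to GCGCATGCG for NRF1, CCGGAAG for ETS factors, AAGATGGCG for YY1, GGGCGG for Sp1 and CACGTG for the E-box that Myc binds.
Ndufa12 promoter, chr10:94198785-94199084, plus strand: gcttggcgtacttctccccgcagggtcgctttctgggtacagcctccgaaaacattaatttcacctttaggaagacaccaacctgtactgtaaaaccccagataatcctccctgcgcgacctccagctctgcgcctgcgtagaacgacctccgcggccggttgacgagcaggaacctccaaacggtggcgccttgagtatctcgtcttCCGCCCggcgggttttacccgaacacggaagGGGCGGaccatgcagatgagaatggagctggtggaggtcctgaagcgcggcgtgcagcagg
Atp5g1 promoter, chr11:96075582-96075881, minus strand: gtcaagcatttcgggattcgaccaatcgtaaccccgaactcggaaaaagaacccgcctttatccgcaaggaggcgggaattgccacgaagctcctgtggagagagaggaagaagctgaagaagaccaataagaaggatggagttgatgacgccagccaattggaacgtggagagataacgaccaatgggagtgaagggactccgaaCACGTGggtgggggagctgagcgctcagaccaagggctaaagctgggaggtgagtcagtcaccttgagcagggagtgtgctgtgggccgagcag
Cox5a promoter, chr9:57520982-57521281, plus strand: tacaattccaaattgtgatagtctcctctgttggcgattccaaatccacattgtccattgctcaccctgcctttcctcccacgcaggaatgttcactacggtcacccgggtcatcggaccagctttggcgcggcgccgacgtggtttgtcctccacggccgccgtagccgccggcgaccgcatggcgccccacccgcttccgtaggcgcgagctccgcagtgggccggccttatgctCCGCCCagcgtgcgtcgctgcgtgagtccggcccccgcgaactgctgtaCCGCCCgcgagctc
Uqcr11 promoter, chr10:80406772-80407071, minus strand: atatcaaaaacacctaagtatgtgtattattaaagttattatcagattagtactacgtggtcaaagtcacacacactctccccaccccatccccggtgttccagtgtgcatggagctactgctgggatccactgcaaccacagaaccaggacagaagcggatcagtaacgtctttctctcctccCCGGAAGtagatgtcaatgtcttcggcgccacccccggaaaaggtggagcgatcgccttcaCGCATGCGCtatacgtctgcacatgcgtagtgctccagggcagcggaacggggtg
Ndufc1 promoter, chr3:51408906-51409205, minus strand: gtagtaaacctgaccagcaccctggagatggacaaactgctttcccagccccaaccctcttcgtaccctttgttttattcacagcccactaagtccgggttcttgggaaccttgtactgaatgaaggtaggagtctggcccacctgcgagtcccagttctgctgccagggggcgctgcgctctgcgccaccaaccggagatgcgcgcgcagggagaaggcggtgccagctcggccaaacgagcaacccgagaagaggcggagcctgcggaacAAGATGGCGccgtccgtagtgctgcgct
Cox7a2l promoter, chr17:83514284-83514583, minus strand: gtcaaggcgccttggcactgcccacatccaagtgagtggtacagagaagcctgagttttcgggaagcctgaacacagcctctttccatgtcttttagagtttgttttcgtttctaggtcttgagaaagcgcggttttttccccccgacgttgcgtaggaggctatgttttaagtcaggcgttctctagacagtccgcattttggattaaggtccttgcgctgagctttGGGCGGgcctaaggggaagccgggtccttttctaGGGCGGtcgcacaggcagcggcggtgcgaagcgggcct
Ndufa12 holds an Sp1 match on either strand and Cox5a holds 2 on the antisense strand. Atp5g1 holds none of the 4 listed motifs and an E-box. Uqcr11 holds an ETS match upstream of the start and an NRF1 match that spans it on the antisense strand. Ndufc1 holds a YY1 match downstream of its start, and Cox7a2l holds 2 Sp1 matches.

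Promoters of 64 of the 78 genes were in the table. An NRF1 match was in 10.9% of them, against 4.41% of the 8846 promoters of genes tested on the arrays and 1.95% of all 27025 promoters. A YY1 match was in 9.38%, against 3.83% of the tested genes and 1.64% of all promoters. An ETS match was in 23.4%, against 21.6% of the tested genes and 9.93% of all promoters. An Sp1 match was in 42.2%, against 68.3% of the tested genes and 38.2% of all promoters. Only 1 arrangement of an ETS match overlapping a YY1 match was searched. It was in 0 subunit promoters and in 0 of all 27025 promoters. Among the 19 genes that rose at 8 h (below), 17 had a promoter in the table. Of these, 1 held an NRF1 match (Uqcr11), 1 a YY1 match (Ndufc1), 5 an ETS match and 8 an Sp1 match, against 6, 5, 10 and 16 of the 42 promoters of genes not called. The E-box, searched after these promoters had been seen, was in 9.38% of the subunit promoters and 11.9% of tested genes, and in 8.09% of all promoters. A match is a run of letters, not a bound site, and these shares were not tested.

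Transcripts of the chain were bright in these cells. Of the 78 genes, 66 lay above the 90th percentile of brightness among all probe sets other than controls, and the median gene lay at the 97.0th. Those probe sets include dimmer ones of the same genes and ones with no symbol, while each subunit gene was read by its brightest. The median subunit signal was 4735, 5448 and 6060 in untreated, 4 h and 8 h Nrdp1-/- cells, and 4697, 5207 and 5725 in wild-type cells. It was higher on both 8 h arrays than on either untreated array.

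At 8 h of stimulation, 19 of the 73 tested subunit genes rose and 1 fell (adjusted p under 0.05, limma, adjusted over all 10838 genes tested). Across all tested genes 9.88% were called higher and 9.26% lower at 8 h. The median log2 difference of the 73 genes was 0.22, against -0.07 for all tested genes, and 67 of the 73 were positive. The changes were small: the 19 genes that rose did so by 1.25- to 2.30-fold, with a median log2 difference of 0.50. Only Uqcrq passed 2-fold. All 19 were positive in both genotypes at both times. Averaged over the genotypes, all 19 were further from untreated at 8 h than at 4 h. In wild-type cells alone Atp5md was not, at 0.39 at 4 h and 0.29 at 8 h. The 19 were picked by their 8 h difference on these same arrays, which largely fixes both statements, so they are a description.

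At 4 h, 3 of the 73 genes rose and 0 fell, against 8.01% of all tested genes higher and 5.51% lower. The 3 were Uqcrq, Atp5g1 and Ndufa12, and all of them were called again at 8 h. At an unadjusted p under 0.05, 19 of the 73 were higher and 0 lower, against 13.3% and 14.3% of all tested genes. The median log2 difference at 4 h was 0.15, against -0.05 for all tested genes, and 61 of 73 were positive.

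These calls depend on how the spread is estimated. With 1 array per genotype and time, each time has 2 arrays, the error is the change of the genotype difference from condition to condition, and limma steadies it by borrowing from genes of like brightness. When it borrowed from all genes alike, 0 subunit genes were called at either time. All tested genes then gave 0.766% higher and 0.0369% lower at 4 h, and 0.95% higher and 0.0461% lower at 8 h. At an unadjusted p under 0.05 that fit gave 5 subunit genes higher and 0 lower at 4 h, where 11.3% of all tested genes were higher and 11.3% lower, so the 5 of 73 lie below the share over all genes. It gave 21 higher and 1 lower at 8 h, against 12.7% and 13.9% of all tested genes. Without the untreated Nrdp1-/- array the 19 genes higher at 8 h became 7, and without the 8 h Nrdp1-/- array 8. The count higher at 4 h was 5 without the 4 h Nrdp1-/- array and 6 without the 8 h array of either genotype.

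**Figure D1:**
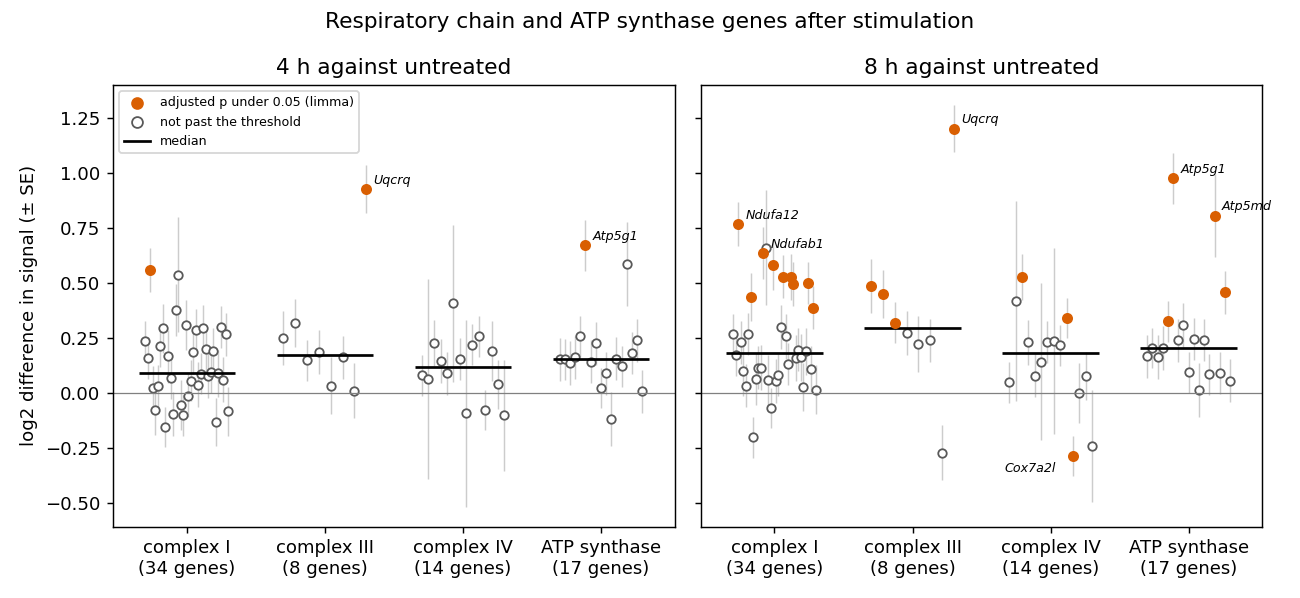
Log2 difference in signal from untreated cells at 4 h (left) and 8 h (right) for the 73 tested subunit genes by complex, over both genotypes. Each point is 1 gene with its standard error, orange points passed the limma threshold and black lines are medians. More points are orange at 8 h, and Uqcrq at 1.20 stands highest.

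Complex III had the largest single change. Uqcrq, a small subunit of the cytochrome bc1 complex that supports the assembly around cytochrome b, had signals of 2699, 5524 and 6919 in untreated, 4 h and 8 h Nrdp1-/- cells and of 2795, 4946 and 5781 in wild-type cells. Both stimulated arrays of a genotype lay above both untreated arrays, and the genotypes were close to each other. The log2 difference was 0.93 at 4 h (SE 0.11, adjusted p = 0.000221, limma) and 1.20 at 8 h (SE 0.11, adjusted p = 2.76e-05, limma). Its other 3 probe sets are dim (mean signal 35.9 to 88.5) and do not share one direction, and averaging all 4 gave a log2 difference of -0.25 at 8 h.

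The other small subunits of complex III mostly moved the same way. Uqcr10 rose by 0.48 at 8 h (SE 0.12), with 2013, 2810 and 3102 in Nrdp1-/- cells and 2366, 2406 and 3011 in wild-type cells. Uqcr11 rose by 0.45 (SE 0.11) and Uqcrb, named as the ubiquinone-binding protein, by 0.32 (SE 0.09). The adjusted p-values from limma were 0.0187, 0.0155 and 0.0362. Uqcrh, the acidic hinge protein beside cytochrome c1, was the exception among these 5 genes. It had 16673, 19590 and 13393 in Nrdp1-/- cells and 18508, 16006 and 15844 in wild-type cells, with a log2 difference of -0.27 at 8 h that did not pass (SE 0.12). None of the 3 core or redox subunits passed at 8 h, which were Uqcrc1, Uqcrc2 and the Rieske protein Uqcrfs1. Their log2 differences were all positive, with a median of 0.24.

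Complex I gave 9 of the 19 genes that rose, out of 34 tested, and 0 fell. Over all tested genes 9.88% were higher and 9.26% lower at 8 h. Ndufa12, an accessory subunit of the arm that takes electrons from NADH, led with 3251, 4613 and 5663 in Nrdp1-/- cells and 2936, 4489 and 4888 in wild-type cells. Both 4 h arrays were already above both untreated ones. The log2 difference was 0.56 at 4 h (adjusted p = 0.00391, limma) and 0.77 at 8 h (adjusted p = 0.000438, limma; SE 0.10 at either time). Its 2 other bright probe sets were 0.69 and 0.51 higher at 8 h, and a dim one (mean signal 140) was 0.22 lower.

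Ndufab1, the mitochondrial acyl carrier protein, which also serves lipoic acid and iron-sulphur cluster synthesis, had 2327, 2976 and 4068 in Nrdp1-/- cells and 2311, 3049 and 3194 in wild-type cells. The increase of 0.64 at 8 h (SE 0.12, adjusted p = 0.00401, limma) was larger in Nrdp1-/- cells (0.80) than in wild-type cells (0.47). The accessory subunits Ndufb2, Ndufb7, Ndufc1, Ndufc2 and Ndufa5 rose by 0.58, 0.53, 0.53, 0.50 and 0.44 at 8 h. Ndufb7 is one of the subunits with twin cysteine motifs that are folded in the intermembrane space.

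Of the 6 core subunits of complex I, 2 rose at 8 h, and of the 28 accessory ones 7, a difference that was not tested. Ndufs8, which carries a pair of iron-sulphur clusters, had 4197, 5224 and 6109 in Nrdp1-/- cells and 4122, 5029 and 5668 in wild-type cells, a log2 difference of 0.50 (SE 0.10, adjusted p = 0.00475, limma). Ndufv2, an iron-sulphur subunit of the NADH-oxidising module, rose by 0.39 (SE 0.10, adjusted p = 0.0184, limma). The other core subunits, Ndufs1, Ndufs3, Ndufs7 and Ndufv1, did not pass, and the median of all 6 was 0.19. The lowest values in complex I were those of Ndufa6 (-0.20, SE 0.09) and Ndufb11 (-0.07), neither of which passed.

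**Figure D2:**
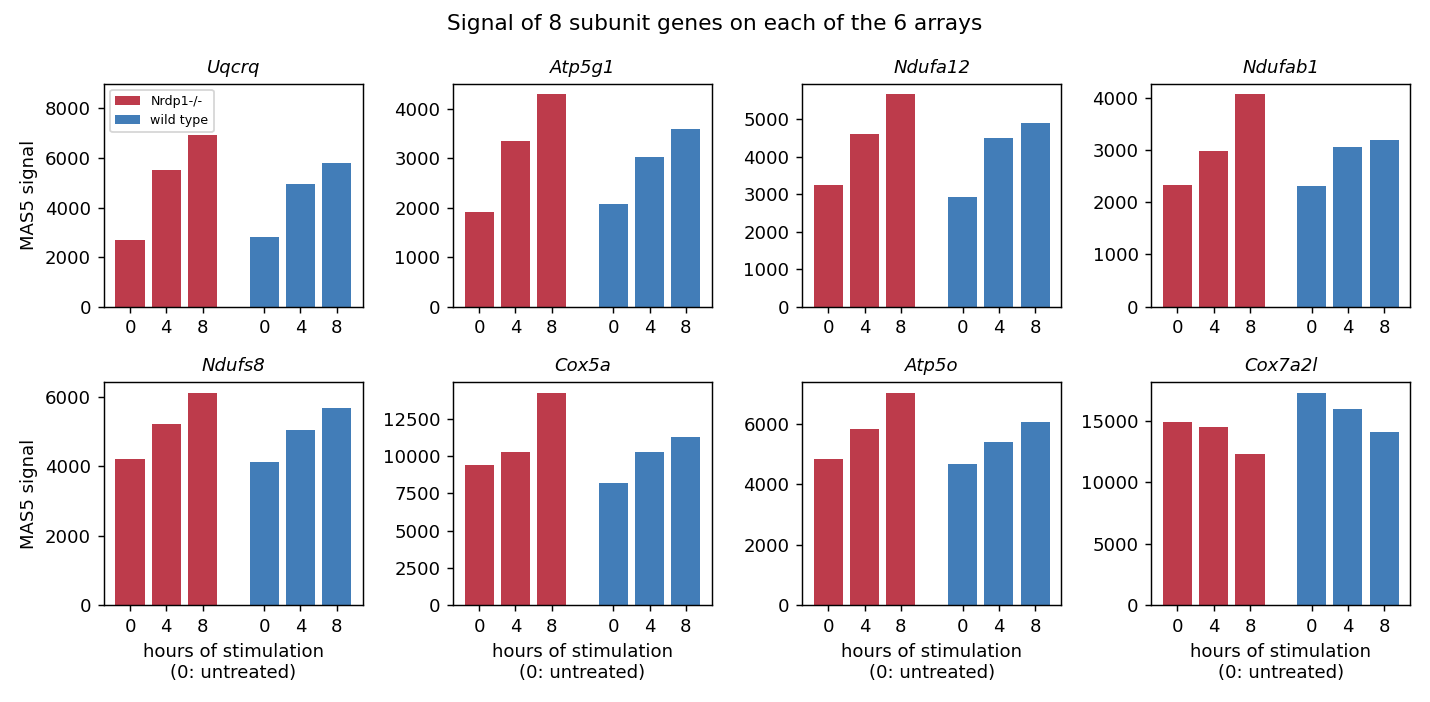
MAS5 signal of 8 subunit genes on each of the 6 arrays, with Nrdp1-/- arrays in red at left and wild-type arrays in blue at right, each untreated (0) and after 4 h and 8 h. Every bar is 1 array, so there are no error bars. In 7 genes the bars climb with time in both genotypes, and in Cox7a2l they descend.

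In complex IV, 2 genes rose and 1 fell of 14 tested at 8 h. These counts lie near the shares over all tested genes, 9.88% higher and 9.26% lower. Cox5a, a subunit on the matrix side of the enzyme, had 9395, 10292 and 14226 in Nrdp1-/- cells and 8211, 10279 and 11286 in wild-type cells. It rose by 0.53 (SE 0.10, adjusted p = 0.00559, limma), and its 2 other probe sets were 0.55 and 0.39 higher. Cox7a2 rose by 0.34 (SE 0.09, adjusted p = 0.0249, limma), with 10232, 12036 and 13112 in Nrdp1-/- cells and 10073, 12232 and 12604 in wild-type cells. This call was kept in 7 of 15 alternative settings, that of Atp5e in 7 of 14 and that of Uqcrb in 9 of 15.

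Cox7a2l, described elsewhere as a factor of supercomplexes of complex III and complex IV, went the other way. Whether its protein has that role in mice of this strain was not examined. It had 14873, 14512 and 12254 in Nrdp1-/- cells and 17274, 15958 and 14095 in wild-type cells. The log2 difference was -0.07 at 4 h and -0.29 at 8 h (SE 0.09, adjusted p = 0.0496, limma), just inside the threshold, and its 2 other probe sets gave -0.14 and -0.19. The difference was -0.28 in Nrdp1-/- cells and -0.29 in wild-type cells. The call was lost in 9 of 14 alternative settings, among them those without the untreated or 8 h Nrdp1-/- array or the untreated wild-type array, where 0 genes were called lower. Just outside the threshold on the other side of 0 was Atp5g3 (0.31, adjusted p = 0.0506, limma). Of 17 subunit genes with a mean signal above 10000, 3 rose at 8 h. The median signal was 4777 for the genes that rose and 6764 for those not called, and Spearman's correlation between mean signal and log2 difference was -0.26 over the 73 genes. These share the same 6 arrays, and very bright probe sets on a microarray can saturate, which was not tested.

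Cytochrome c oxidase has tissue forms of several subunits, and the arrays separated them widely. The 6 widely expressed forms measured here, Cox4i1, Cox6a1, Cox6b1, Cox7a2, Cox8a and the related Ndufa4, had mean signals of 5928 to 20323. Ndufa4 keeps a complex I name but is now placed in complex IV. By symbol, it and Ndufa4l2 were counted with complex I in the counts and figures here. The 8 forms of muscle, testis, lung or hypoxic cells, Cox4i2, Cox6a2, Cox6b2, Cox7a1, Cox7b2, Cox8b, Cox8c and Ndufa4l2, had mean signals of 5.11 to 202, and 4 were too dim to test. Their probe sets differ, so this is a description of brightness. Of the 8 forms, 2 read high on 1 array alone. Ndufa4l2, induced by hypoxia elsewhere, was at 97.8 in wild-type cells at 8 h and between 9.51 and 13.04 on the other 5 arrays. Cox8b was at 81.0 in untreated wild-type cells and between 3.01 and 12.0 on the other 5.

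In ATP synthase, 4 of 17 genes rose at 8 h, where 9.88% of all tested genes were called higher. All 17 had positive log2 differences, with a median of 0.20. The c ring is built from one identical mature protein encoded by 3 genes that differ in their import sequence, and they behaved unequally in size. Atp5g1 had 1912, 3347 and 4296 in Nrdp1-/- cells and 2080, 3022 and 3590 in wild-type cells. It rose by 0.67 at 4 h (SE 0.12, adjusted p = 0.00316, limma) and by 0.98 at 8 h (adjusted p = 0.000231, limma). Atp5g2 and Atp5g3, both brighter, had log2 differences of 0.24 and 0.31 at 8 h, which did not pass. No test of the difference between these 3 genes was run.

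Atp5md, a small membrane subunit at the interface of ATP synthase dimers, had 871, 1504 and 2179 in Nrdp1-/- cells and 1322, 1728 and 1622 in wild-type cells. Its increase of 0.81 at 8 h (SE 0.19, adjusted p = 0.0138, limma) was 1.32 in Nrdp1-/- cells and 0.29 in wild-type cells, the most uneven of the 19. Atp5o, which ties the stalk to the F1 head and confers sensitivity to oligomycin, rose by 0.46 (SE 0.10, adjusted p = 0.00838, limma). Among the 5 F1 genes only Atp5e passed, with 0.33 (SE 0.09, adjusted p = 0.0318, limma). The catalytic Atp5b and its partner Atp5a1 did not pass, at 0.20 and 0.17. F1 had 1 of 5 genes called and the stalk and membrane part 3 of 12.

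Between 4 h and 8 h no subunit gene passed (limma, 0 higher and 0 lower; 0.0185% of all tested genes were higher and 0.0277% lower). At an unadjusted p under 0.05, 7 of 73 were higher and 2 lower at 8 h, the lower ones being Cox7a2l and Uqcrh, against 3.47% higher and 4.9% lower of all tested genes. The median log2 difference was 0.08, against -0.01 for all tested genes.

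The genotypes were compared next. Over the 3 conditions, 0 subunit genes were called higher and 0 lower in Nrdp1-/- cells by limma, where 2.47% of all tested genes were higher and 2.57% lower. The median log2 difference was 0.04, with 51 of 73 positive. At an unadjusted p under 0.05, 1 of 73 was higher and 2 were lower, below the 7.9% and 8.63% of all tested genes. The values of these 3 are given as a description. Ndufb7 was 0.18 higher (adjusted p = 0.301, limma). Cox7a2l was 0.18 lower, a log2 difference of -0.18 (adjusted p = 0.234, limma). Ndufs5, an accessory subunit of complex I, had 1794, 1737 and 1901 in Nrdp1-/- cells and 2276, 1959 and 2231 in wild-type cells, a log2 difference of -0.25 (SE 0.09, adjusted p = 0.164, limma). The groups did not overlap for this gene, which was chosen after its values were seen. Nor did they for Atp5l, which lay higher in Nrdp1-/- cells (7163, 7915 and 7656 against 6629, 7099 and 6981). Its log2 difference was 0.13 and did not pass (adjusted p = 0.429, limma). How many of all tested genes separate in this way was not counted, so the separation does not set these genes apart.

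The median subunit difference between genotypes was -0.01 without stimulation, 0.06 at 4 h and 0.05 at 8 h. In untreated cells 31 of 73 genes were higher in Nrdp1-/- cells, and at 8 h 50 of 73. Of all 10838 tested genes, 5134 were higher in untreated Nrdp1-/- cells and 4985 at 8 h. Of the 19 genes that rose at 8 h, 18 had a larger change in Nrdp1-/- cells than in wild-type cells. The 19 were picked by a difference that includes the 8 h Nrdp1-/- array, and the share over all tested genes was not counted. Over all 73 genes the median change at 8 h was 0.22 in Nrdp1-/- cells and 0.19 in wild-type cells. All 19 were read on the same arrays, 1 per genotype and condition, so they are not independent observations, and the count of 18 was not tested. A separate term compared the genotype difference of stimulated cells with that of untreated ones, and 0 genes were called higher and 0 lower (limma; 0.0923% of all tested genes higher, 0.129% lower). That test has 1 residual degree of freedom before borrowing. Its prior degrees of freedom were infinite, so each gene's spread was the value of the intensity trend and not its own. With the residual spread of the model without this term, 0 of all tested genes were called higher and 0 lower. At an unadjusted p under 0.05, 2 of 73 genes were higher and 0 lower, near the share over all tested genes (1.68% higher and 2.07% lower). These 2 had a larger stimulated change in Nrdp1-/- cells, Atp5md by 0.71 (SE 0.25, adjusted p = 0.483, limma) and Atp5j2, the f subunit of ATP synthase, by 0.47 (SE 0.23, adjusted p = 1.00, limma).

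**Figure D3:**
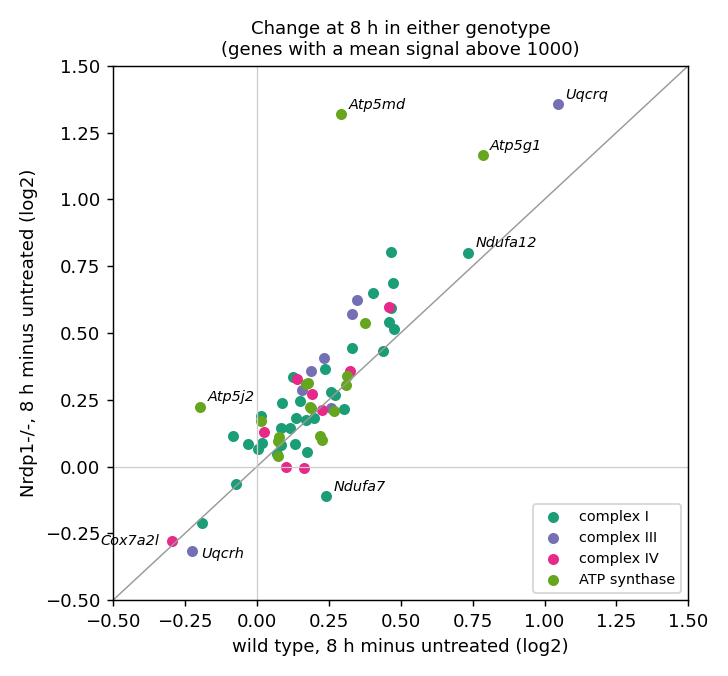
Log2 difference between 8 h and untreated in wild-type cells (x axis) and in Nrdp1-/- cells (y axis) for the tested subunit genes with a mean signal above 1000, coloured by complex. Each point is 1 gene from 1 pair of arrays on each axis and the grey line marks equal change. Most points lie above 0 on both axes, and Atp5md (1.32 in Nrdp1-/- cells, 0.29 in wild-type cells) lies farthest from the line.

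Other cells in the preparations differed between the genotypes. The summed signal of 13 myeloid markers was 12668, 8198 and 2970 in untreated, 4 h and 8 h Nrdp1-/- cells and 1857, 1785 and 1860 in wild-type cells. The median of these markers was 351, 134 and 80.1 in Nrdp1-/- cells and 100, 64.0 and 56.5 in wild-type cells. For 11 B-cell markers the sum was 31834, 34612 and 24963 in Nrdp1-/- cells and 35816, 32074 and 32551 in wild-type cells. Their median was 275, 262 and 255 in Nrdp1-/- cells and 1007, 969 and 1039 in wild-type cells. Of the 10 tested, 8 were called lower in Nrdp1-/- cells and 1, Ighm, higher by 0.51 (adjusted p = 0.0105, limma). Of 10 memory-like CD8 T-cell markers, 9 were called higher in Nrdp1-/- cells. Over all tested genes 2.47% were called higher and 2.57% lower in Nrdp1-/- cells. The part of these cells in the subunit values was not tested. At 8 h the median log2 difference from untreated cells over 10 tested myeloid markers was -2.17 in Nrdp1-/- cells and -0.33 in wild-type cells. Over the 73 subunit genes it was 0.22 in Nrdp1-/- cells and 0.19 in wild-type cells. Fewer cells of a type and less RNA per cell cannot be told apart in such bulk RNA.

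Genes that work with the chain were taken from lists of known function. Of 10 genes of complex II, cytochrome c and their partners, 3 rose at 4 h, 4 rose at 8 h and 0 fell. Across all tested genes 8.01% were higher and 5.51% lower at 4 h, and 9.88% and 9.26% at 8 h. Cycs, cytochrome c itself, had 4540, 6630 and 10989 in Nrdp1-/- cells and 4458, 7766 and 8802 in wild-type cells, and rose by 1.13 at 8 h (SE 0.12, adjusted p = 0.000145, limma). Slc25a5, the ADP/ATP carrier of growing cells, rose by 0.52, Cyc1 (cytochrome c1) by 0.34 and Sdhb, the iron-sulphur subunit of complex II, by 0.32.

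Assembly factors gave 4 of 39 genes higher at 4 h, near the 8.01% of all tested genes, and 7 higher with 1 lower at 8 h, against 9.88% and 9.26% of all tested genes. Ndufaf4, a complex I assembly factor, had 653, 2085 and 1874 in Nrdp1-/- cells and 543, 1641 and 1768 in wild-type cells, and rose by 1.63 at 4 h and 1.61 at 8 h (SE 0.12, adjusted p = 6.76e-06 at 8 h, limma). Uqcc2, needed for synthesis of cytochrome b and assembly of complex III, rose by 0.96 and 1.22. Coa7, Acad9, Ndufaf6, Ndufaf8 and Tmem70 rose at 8 h by 1.00, 0.66, 0.64, 0.61 and 0.36, and Surf1, a complex IV assembly factor, fell by 0.35. Coa7 was also higher in Nrdp1-/- cells, by 0.83 (adjusted p = 0.0196, limma), with 261, 418 and 430 against 129, 196 and 321 in wild-type cells.

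Of 17 regulators of mitochondrial gene expression, 5 rose at both times and 0 fell. The shares over all tested genes were 8.01% higher and 5.51% lower at 4 h, and 9.88% and 9.26% at 8 h. Myc, a growth factor-induced transcription factor, rose by 2.14 and 2.36, and Pprc1, a growth-regulated coactivator related to PGC-1α, by 1.15 and 1.09. Gabpb1, a subunit of the ETS factor GABP, rose by 0.59 and 0.73. Slirp and Lrpprc, which together stabilise mitochondrial mRNAs, rose by 0.39 and 0.66 and by 0.64 and 0.45. Subunits encoded by mitochondrial DNA are not named in the annotation used here and were not analysed.

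**Figure D4:**
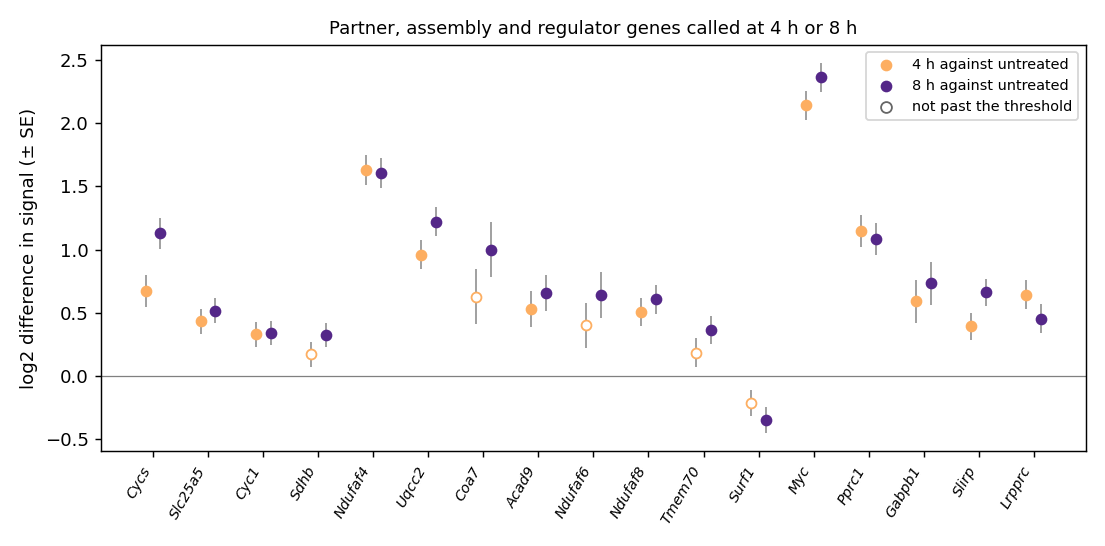
Log2 difference in signal from untreated cells at 4 h (orange) and 8 h (purple), with standard errors, for the 17 partner, assembly and regulator genes called at either time. Open points did not pass the limma threshold. Myc stands highest at 2.36 at 8 h, and Surf1 is the only gene below 0.

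The increase at 8 h did not rest on one probe set in most of the 19 genes. Of these genes, 13 had other bright probe sets, and all 21 such probe sets were higher at 8 h, by 0.09 to 0.69. Another 12 probe sets of these genes were dim, and 7 of them were higher. A suffix on the probe set name marks probes shared with other transcripts of the gene or with other genes: 3 of the 19 genes that rose were read by a probe set without such a suffix, against 37 of the 78 members. Cross-hybridisation with pseudogenes or relatives was not tested. A further 10 probe sets carry a subunit symbol beside another symbol and were not used.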

How the data were processed

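The values deposited by the authors are linear intensities from MAS5, a program that the submitters' processing notes name with no version. The deposited signals had a 2% trimmed mean of 500.003 on each of the 6 arrays, so the authors had scaled each array by 1 factor. Of 45101 probe sets, 64 controls were left out, and 34945 had 1 symbol in the platform annotation, 932 several and 9160 none. All 78 member symbols matched RefSeq (GRCm38.p6).

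Groups came from the sample titles. Each gene was its brightest probe set, taken as log2(signal + 4.45), the 10th percentile of all values, a scale that understates changes of dim genes. Genes at or above the array median on at least 2 arrays (10838) were fitted in R 4.3.3 with limma 3.58.1, in an additive model of time and genotype with an intensity trend, Benjamini-Hochberg adjustment and a threshold of 0.05. That model has 2 residual and 8.99 prior degrees of freedom. A further term for stimulated Nrdp1-/- arrays gave the interaction, with 1 residual and infinite prior degrees of freedom. The scripts were tested on simulated data. The number of arrays limits the precision.

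Members, lists and tests were chosen with earlier results of these data known. Genes named are every called member, the largest changes in each complex, isoforms, the c-subunit genes and called members of other lists. The single-array readings, Ndufs5, Atp5l and the Uqcr11 and Ndufc1 promoters were chosen after their values were seen. Alternatives changed scaling, pseudocount, filter, probe set choice, spread estimate and arrays. The use of plain probe sets alone, and the E-box, were added after seeing the data. A protein table was not used here.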

Additional observations from a re-analysis of the deposited data

How the results depend on the processing

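The median log2 difference over the subunit genes was positive in each of the 5 fitted comparisons under every setting that gave one. With quantile normalisation the count lower at 8 h was 2 (Ndufa6 beside Cox7a2l) and the 8 h median 0.16. Centring arrays on their median gave 0 lower at 8 h, an 8 h median of 0.18 beside a median of all genes of -0.11, and medians of 0.026 for 8 h against 4 h and 0.076 for the interaction. The count lower at 8 h was also 0 with dim probe sets kept, with the mean of all probe sets and with a pseudocount at the 30th percentile. The 70th percentile filter gave 5 higher at 4 h. The mean of all probe sets gave 1 higher at 4 h and 1 lower in Nrdp1-/- cells (Atp5j2, -0.45), and turned Uqcrq at 8 h to -0.25. Plain probe sets alone (chosen after seeing the data) gave 10 higher and 0 lower at 8 h, medians of 0.16 at 8 h and 0.095 for the interaction, and turned Ndufa12 to -0.22, Ndufab1 to -0.033 and Ndufb2 to -0.15, all on dim probe sets. Without the intensity trend 0 genes were higher at 4 h, and 0 higher and 0 lower at 8 h. The cause of these shifts was otherwise not tested.

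Leaving out 1 array at a time gave 2 to 6 genes higher at 4 h, 7 to 24 higher and 0 to 2 lower at 8 h, an 8 h median of 0.17 to 0.24 and a median of 0.049 to 0.12 for 8 h against 4 h. The count higher at 4 h was 5 without the 4 h Nrdp1-/- array, and 6 without the 8 h array of either genotype. At 8 h it was 7 without the untreated Nrdp1-/- array and 8 without the 8 h Nrdp1-/- array. Where a condition kept 1 array, it is assumed to vary like the others. The count lower at 8 h was 0 without either of these 2 arrays or the untreated wild-type array, and 2 without either 4 h array. No paired analysis was possible because each group has 1 array and so 1 replicate number. Genotype, a term of the model, already sets each time against untreated cells within a genotype.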
